A study of Mus musculus with 4 samples.

Results

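The genes described here are 9 transcription factors that build or maintain the macrophage lineage, Spi1, Cebpa, Cebpb, Cebpd, Maf, Klf2, Klf4, Bhlhe40 and Bhlhe41. They were taken by name from a count table of 54532 mouse genes, and no measured value enters the rule. The data are 4 bulk RNA-seq libraries of peritoneal macrophages from BALB/c mice, labelled as wild-type, whose peritoneal cells had been recruited with thioglycollate broth. The cells were rested and pretreated with vehicle (DMSO) or with 10 µM CH223191, an antagonist of the aryl hydrocarbon receptor (AHR). They were then cultured, with the same compound still present, in normal medium or with 30% of it replaced by conditioned medium (4T1-CM). The conditioned medium came from 4T1 cells, a BALB/c mammary carcinoma line. The libraries in normal medium are written here as control/DMSO and control/CH223191, and those in 4T1-CM as CM/DMSO and CM/CH223191. Each of the 4 combinations of medium and compound is a single library, so no value has a replicate. A sample of macrophages can hold other cells, and whether the cells of a library were pooled from several mice was not given in the sources used here.

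PU.1, the product of Spi1, is the ETS factor on which the myeloid lineage depends, and it opens chromatin together with C/EBP factors at the enhancers of macrophage genes. C/EBPα directs myeloid progenitors, while C/EBPβ and C/EBPδ are raised by inflammatory signals and act on acute-phase and alternatively activated genes. c-Maf, encoded by Maf, restrains self-renewal of macrophages and favours IL-10 and complement C1q. KLF2 and KLF4 are zinc finger factors that temper or redirect inflammatory activation and take part in the identity of peritoneal macrophages and monocytes. BHLHE40 and BHLHE41 are E-box repressors that also act on the circadian clock and support proliferation and identity of resident macrophages.

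Coordinates are those of the count table, which correspond to the GRCm38 build. Spi1 is at chr2:91082390-91115756 (+), Cebpa at chr7:35119293-35121928 (+), Cebpb at chr2:167688915-167690418 (+) and Cebpd at chr16:15887286-15891031 (+). Maf is at chr8:115682942-115707794 (-), Klf2 at chr8:72319033-72321656 (+) and Klf4 at chr4:55527143-55532466 (-). Bhlhe40 and Bhlhe41 are both on chromosome 6, at chr6:108660629-108666925 (+) and chr6:145858243-145865558 (-). Cebpb has a single exon.

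Cebpa, Cebpb and Bhlhe41 were lower in control/CH223191 than in each other library by more than counting error, as the values further on show, and their promoters are printed to show the sequence near their start. The sequences are RefSeq promoter windows of GRCm38.p6, from 250 bases before to 50 bases after the start, 5′ to 3′ on the strand of the gene. Capitals mark GCGTG, the core of the AHR binding motif, on either strand. The windows are chr7:35119043-35119342 (+) for Cebpa, chr2:167688665-167688964 (+) for Cebpb and chr6:145865371-145865670 (-) for Bhlhe41. All 3 run into the gene as the count table bounds it, that of Bhlhe41 further than the others.
Cebpa: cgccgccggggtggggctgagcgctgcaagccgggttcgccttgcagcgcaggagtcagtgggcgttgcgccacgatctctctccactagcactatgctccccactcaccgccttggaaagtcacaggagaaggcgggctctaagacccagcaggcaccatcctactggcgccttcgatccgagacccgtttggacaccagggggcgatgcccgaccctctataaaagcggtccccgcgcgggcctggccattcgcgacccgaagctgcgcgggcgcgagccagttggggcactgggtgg
Cebpb: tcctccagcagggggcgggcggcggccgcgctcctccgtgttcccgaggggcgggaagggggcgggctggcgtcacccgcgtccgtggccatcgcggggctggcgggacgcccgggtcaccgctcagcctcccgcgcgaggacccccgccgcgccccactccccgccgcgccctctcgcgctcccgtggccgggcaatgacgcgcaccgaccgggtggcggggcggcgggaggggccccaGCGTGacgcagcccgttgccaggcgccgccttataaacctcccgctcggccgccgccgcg
Bhlhe41: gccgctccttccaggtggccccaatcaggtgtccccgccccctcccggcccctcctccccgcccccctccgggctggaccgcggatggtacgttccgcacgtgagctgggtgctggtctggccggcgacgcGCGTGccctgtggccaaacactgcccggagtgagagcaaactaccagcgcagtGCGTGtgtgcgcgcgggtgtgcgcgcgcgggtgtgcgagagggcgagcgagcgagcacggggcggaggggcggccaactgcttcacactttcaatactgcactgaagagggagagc

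A promoter window was held for 5 of the 9 genes, the 3 above with Klf2 and Klf4, and Spi1, Cebpd, Maf and Bhlhe40 were not analysed for motifs. The AHR core GCGTG occurred 2 times in the Bhlhe41 window and 1 time in that of Cebpb, and not in those of Cebpa, Klf2 and Klf4, against 32.4% of all 32851 windows with at least 1 match. The E-box CACGTG, the kind of site that BHLHE40 and BHLHE41 bind, occurred 1 time each in the Klf4 and Bhlhe41 windows and in 7.15% of all windows. None of the 5 windows held the STAT motif TTCNNNGAA, the cAMP response element TGACGTCA, the C/EBP palindrome TTGCGCAA or the PU.1 motif GAGGAAGT, which occurred in 8.30%, 1.79%, 0.183% and 3.20% of all windows. Both strands were searched, and a match is a description of the letters in this window, not a site of binding.

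The libraries held between 15535405 and 17557127 reads, and all 9 genes were detected in each of them, with 69 reads for the lowest value and 6921 for the highest. Read counts scaled for library size by the TMM method (CPM) were divided by gene length in kilobases to compare levels between genes. Markers of macrophages fitted the label, since none of 8 was at 0 and they summed to 14304 to 43446 CPM. Without Lyz2, the largest, they summed to 2415 to 7877 CPM. The sums for B cells, T cells, eosinophils with mast cells, epithelial tumour cells and mesothelial cells were each at most 1.89 CPM. Those for fibroblasts, endothelial cells and neutrophils were higher, at 31.0 to 157, 38.7 to 111 and 67.6 to 242 CPM. In bulk samples, fewer cells of a type and less RNA per cell cannot be told apart. With 1 library per condition no pair was tested. The 95% intervals are exact Clopper-Pearson intervals for how a gene's reads divide between 2 libraries, and cover counting error only, and a gene was called different from a 2-fold change of its CPM.

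**Figure D1:**
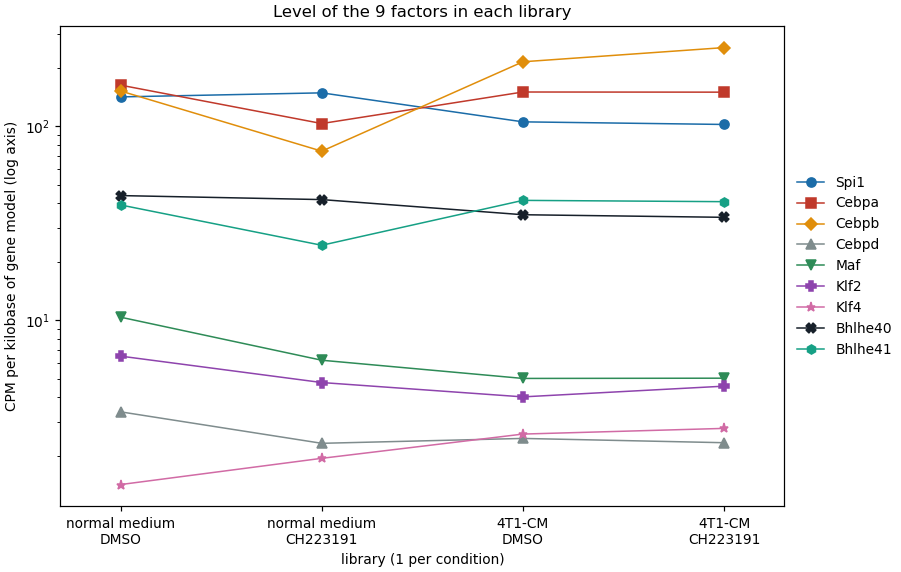
Level of the 9 factors in CPM per kilobase (log axis) in each of the 4 libraries, 1 line per gene, with no error bars because there are no replicates. Spi1, Cebpa and Cebpb lie at 74.3 or above in every library and Cebpd and Klf4 at 3.37 or below, and Cebpb moves from 74.3 in control/CH223191 to 254 in CM/CH223191.

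Spi1, Cebpa and Cebpb were the most abundant, at 74.3 to 254 CPM per kilobase, and Bhlhe40 and Bhlhe41 followed at 24.3 to 43.9. Maf and Klf2 lay at 4.02 to 10.4, and Cebpd and Klf4 at 1.42 to 3.37. Among 849 detected genes that the table assigns to a transcription factor family, ordered by CPM per kilobase, Cebpb ranked 4 in control/DMSO, 13 in control/CH223191, 2 in CM/DMSO and 1 in CM/CH223191. Spi1 ranked between 3 and 9 and Cebpa between 3 and 6 in the 4 libraries, so the order among the top factors differed between conditions. The order Klf2 above Klf4 held per kilobase in each library, while Cebpd was above Klf4 in normal medium and below it in 4T1-CM, at 2.45 against 2.59 with DMSO and 2.33 against 2.77 with CH223191. The gap between Cebpd and Klf4 in 4T1-CM rests on 161 against 138 reads with DMSO and 142 against 137 with CH223191.

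Spi1, which encodes PU.1, was lower in 4T1-CM with and without CH223191. Its level was 381 CPM in control/DMSO, 400 in control/CH223191, 284 in CM/DMSO and 275 in CM/CH223191. Both 4T1-CM libraries lay below both normal-medium libraries, and CH223191 differed little from DMSO for Spi1 in either medium. The 4T1-CM to normal-medium log2 ratio was -0.43 (95% interval from -0.48 to -0.37) under DMSO and -0.54 (-0.60 to -0.49) with CH223191. Comparing CH223191 with DMSO gave a log2 ratio of 0.07 (0.02 to 0.12) for normal medium, and of -0.04 (-0.10 to 0.01) for 4T1-CM. Less the median of 200 genes of like GC content the 4T1-CM ratios were -0.23 and -0.31, and less that of 200 genes of like length -0.30 and -0.29, so they kept their sign and shrank.

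Cebpb, which encodes the inflammatory C/EBP factor, had the widest range of the 9 genes. It stood at 228 CPM in control/DMSO, 112 in control/CH223191, 323 in CM/DMSO and 382 in CM/CH223191. Both 4T1-CM libraries were above both normal-medium libraries, and CH223191 went with a lower level in normal medium and a higher one in 4T1-CM. Its 4T1-CM log2 ratio was 0.50 (0.44 to 0.56) with DMSO and 1.77 (1.70 to 1.85), or 3.42-fold, with CH223191. Less the median of genes of like GC content these values were 0.92 and 2.01. With CH223191 the log2 ratio to DMSO was -1.03 (-1.11 to -0.95) without and 0.24 (0.19 to 0.30) within 4T1-CM. These ratios share libraries, so the low value in control/CH223191 enters both the larger 4T1-CM ratio and the lower CH223191 ratio. The gene Tmem189 overlaps 312 of the 1504 exonic bases of Cebpb on the opposite strand and had 5806, 5536, 4842 and 4386 reads in the same order of libraries, fewer in 4T1-CM, where Cebpb was higher. Whether reads were counted by strand is not stated, and 18.1% of the 50-base words of Cebpb also occur in transcripts of other genes.

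Cebpa, which encodes the progenitor C/EBP factor, was low in 1 library. Its level was 429 CPM in control/DMSO, 272 in control/CH223191, 395 in CM/DMSO and 395 in CM/CH223191. The 4T1-CM libraries were alike and lay slightly below control/DMSO and well above control/CH223191. Against DMSO, CH223191 gave a log2 ratio of -0.66 (-0.71 to -0.60) in normal medium, while it was -0.00 (-0.05 to 0.05) in 4T1-CM. The ratio of 4T1-CM to normal medium was -0.12 (-0.17 to -0.07) with DMSO and 0.54 (0.48 to 0.59) with CH223191. The small negative value with DMSO turned to 0.21 less the median of 200 genes of like GC content and to 0.03 less that of 200 genes of like length.

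Cebpd, the least abundant C/EBP gene of the 3, had 201 reads in control/DMSO, 138 in control/CH223191, 161 in CM/DMSO and 142 in CM/CH223191, or 12.6, 8.68, 9.20 and 8.74 CPM. Only control/DMSO stood above the other libraries, which were close to each other. In normal medium the CH223191 log2 ratio was -0.54 (-0.86 to -0.22), and in 4T1-CM it was -0.07 (-0.41 to 0.26). That of 4T1-CM to normal medium was -0.45 (-0.76 to -0.15) with DMSO and 0.01 (-0.34 to 0.36) with CH223191. Spidr overlaps 562 of 3746 exonic bases of Cebpd on the opposite strand and had 178, 160, 302 and 278 reads. These are more than the reads of Cebpd in every library but control/DMSO.

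The balance between C/EBP genes was read as a ratio of reads within a library, which does not depend on how libraries are scaled. Such a ratio is not divided by gene length, so its change between libraries is compared, not its size. The ratio of Cebpb to Cebpa was 0.532 (0.511 to 0.554) in control/DMSO, 0.411 (0.389 to 0.435) in control/CH223191, 0.817 (0.788 to 0.846) in CM/DMSO and 0.968 (0.935 to 1.003) in CM/CH223191. It was higher in both 4T1-CM libraries, by 1.53-fold with DMSO and 2.36-fold with CH223191. CH223191 went with a lower ratio in normal medium and a higher one in 4T1-CM. The ratio of Cebpd to Cebpb was 0.0552 and 0.0777 in control/DMSO and control/CH223191, against 0.0285 and 0.0229 in 4T1-CM, and the intervals of the media did not overlap.

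**Figure D2:**
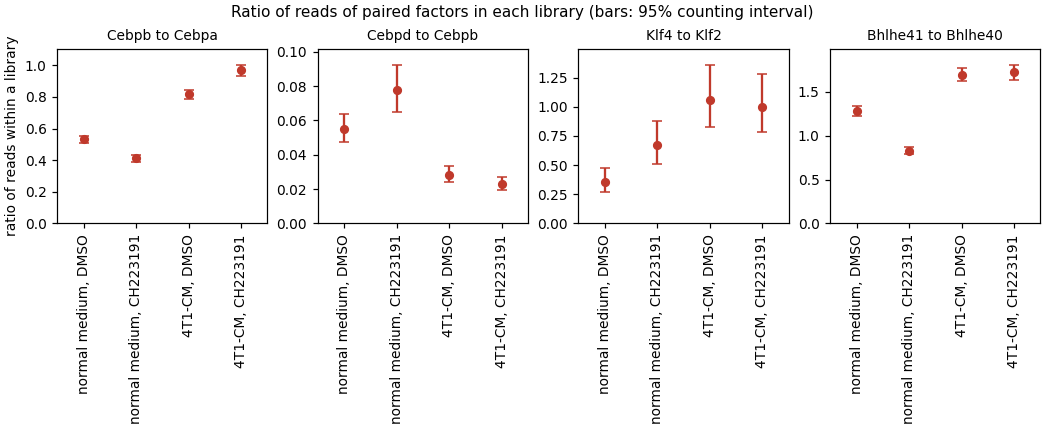
Ratio of the reads of 2 factors within each library (vertical axis from 0) for 4 pairs, with bars for the 95% interval of counting error. Cebpb to Cebpa is higher and Cebpd to Cebpb lower in both 4T1-CM libraries, and Bhlhe41 to Bhlhe40 is lowest, at 0.830, in control/CH223191.

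Maf, which encodes c-Maf, was highest in control/DMSO. Its level was 85.3 CPM there, 51.2 in control/CH223191, 41.2 in CM/DMSO and 41.4 in CM/CH223191. Both 4T1-CM libraries were below both normal-medium libraries. Between media the log2 ratio was -1.05 (-1.18 to -0.92), a 2.07-fold lower level, with DMSO and -0.31 (-0.46 to -0.16) with CH223191. CH223191 went with a lower level in normal medium, at -0.74 (-0.86 to -0.61), and with 0.00 (-0.15 to 0.16) in 4T1-CM.

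The KLF genes moved in opposite directions with 4T1-CM when DMSO was present. Klf2 had 192 reads in control/DMSO, 140 in control/CH223191, 130 in CM/DMSO and 137 in CM/CH223191, or 12.05, 8.80, 7.43 and 8.43 CPM. Klf4 had 69, 94, 138 and 137 reads in that order, or 4.33, 5.91, 7.88 and 8.43 CPM, so both 4T1-CM libraries were above both normal-medium libraries. With DMSO the 4T1-CM log2 ratio was -0.70 (-1.03 to -0.37) for Klf2 and 0.86 (0.44 to 1.30) for Klf4. With CH223191 it was -0.06 (-0.41 to 0.29) for Klf2 and 0.51 (0.12 to 0.91) for Klf4, and no change of Klf2 was detectable at this depth. The ratio of Klf4 to Klf2 reads was 0.359 (0.269 to 0.476) and 0.671 (0.511 to 0.878) in control/DMSO and control/CH223191, and 1.06 (0.829 to 1.36) and 1 (0.783 to 1.28) in 4T1-CM. In normal medium CH223191 went with a Klf2 ratio of -0.45 (-0.78 to -0.13) and a Klf4 ratio of 0.45 (-0.01 to 0.92), and in 4T1-CM with 0.18 (-0.17 to 0.54) and 0.10 (-0.25 to 0.45). Klf2 is also a factor of endothelial cells, and the 6 endothelial markers summed to 111, 81.0, 44.3 and 38.7 CPM, with Vwf the largest part and Tek and Cldn5 at 0 in every library. Without Vwf the sums were 14.8, 9.75, 16.2 and 13.5 CPM, which were not lower in 4T1-CM within DMSO or within CH223191. Cdh5 was higher in 4T1-CM, with 14 and 10 reads in normal medium against 60 and 37. Kdr had 142 and 80 reads against 183 and 143, while Tie1, like Vwf, was lower in 4T1-CM, with 80 and 65 against 41 and 40. The part of endothelial markers in the Klf2 values was not tested.

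Bhlhe40 and Bhlhe41, which encode paired E-box repressors, did not move alike. Bhlhe40 stood at 206 CPM in control/DMSO, 197 in control/CH223191, 164 in CM/DMSO and 159 in CM/CH223191. It was lower in both 4T1-CM libraries, with log2 ratios of -0.33 (-0.40 to -0.26) with DMSO and -0.30 (-0.38 to -0.23) with CH223191, and differed little with the compound, by -0.07 (-0.14 to 0.00) without 4T1-CM and -0.04 (-0.12 to 0.03) with it. Bhlhe41 stood at 264, 163, 278 and 274 CPM in the same order, so that control/CH223191 lay apart from the other libraries. Its log2 ratio of CH223191 to DMSO was -0.69 (-0.76 to -0.62) in normal medium, but -0.02 (-0.08 to 0.04) once 4T1-CM was present. Its ratio of 4T1-CM to normal medium was 0.08 (0.02 to 0.14) with DMSO and 0.75 (0.68 to 0.82) with CH223191. The ratio of Bhlhe41 to Bhlhe40 reads was 1.28 (1.22 to 1.34), 0.830 (0.788 to 0.875), 1.69 (1.62 to 1.77) and 1.72 (1.64 to 1.81) in the 4 libraries. It was higher in 4T1-CM with and without CH223191, by 1.33-fold with DMSO and 2.07-fold with CH223191. The predicted transcript Gm43909, with 21 to 33 reads, overlaps 1280 of 6720 exonic bases of Bhlhe41 on the opposite strand, and 16.4% of the 50-base words of Bhlhe41 occur in transcripts of other genes.

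**Figure D3:**
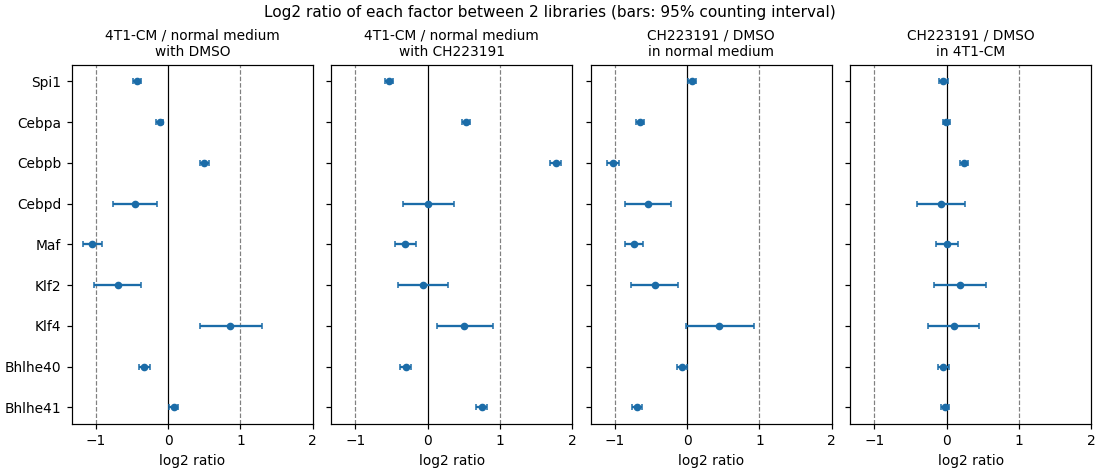
Log2 ratio of each factor in the 4 comparisons, with bars for the 95% interval of counting error and dashed lines at a 2-fold change. In 4T1-CM the CH223191 ratios lie between -0.07 and 0.24, while in normal medium 6 of the 9 intervals lie below 0, beside 19.9% of all genes tested, and Cebpb reaches -1.03.

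Counted at 2-fold, few of the factors were called in any comparison. Between CM/DMSO and control/DMSO, 0 of 9 were higher and 1, Maf, was lower in CM, beside 12.2% and 6.12% of the 13715 genes tested. Between CM/CH223191 and control/CH223191, 1 of 9, Cebpb, was higher in CM and 0 were lower, beside 12% and 7.87% of genes. For CH223191 against DMSO, 0 were higher and 1, Cebpb, was lower in normal medium, beside 4.84% and 3.31% of genes, while 4T1-CM gave 0 in either direction, beside 2.75% and 2.66%. None of the 9 was called the same way in both 4T1-CM comparisons, beside 8.18% of genes higher and 3.38% lower, nor in both CH223191 comparisons, beside 0.649% and 0.481%. The counts of 0 or 1 among 9 are near what these shares of all genes give. The median log2 ratio of the 9 factors was -0.33 and 0.01 in the 4T1-CM comparisons with DMSO and CH223191, and -0.54 (normal medium) and -0.00 (4T1-CM) for CH223191, while the median of all genes tested lay between 0.00 and 0.02.

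In normal medium the CH223191 ratio was below 0 with its whole interval for 6 of the 9 factors, Cebpb, Maf, Bhlhe41, Cebpa, Cebpd and Klf2, beside 19.9% of all genes tested. An interval of counting error excludes 0 more readily for genes with many reads, as several of these have. Among all genes tested, 3.21% had a lower ratio than Cebpb, 5.26% than Maf, 5.72% than Bhlhe41, 6.19% than Cebpa, 8.30% than Cebpd and 10.8% than Klf2. In 4T1-CM none of the 9 had an interval below 0, beside 13.5% of genes, and 1, Cebpb, had one above it, beside 13.3%. The 4T1-CM ratio with CH223191 less that with DMSO was 1.27 (1.18 to 1.37) for Cebpb, 0.74 (0.54 to 0.94) for Maf, 0.67 (0.58 to 0.76) for Bhlhe41 and 0.65 (0.58 to 0.73) for Cebpa. It was 0.63 (0.17 to 1.101) for Klf2, 0.46 (0.01 to 0.92) for Cebpd, 0.02 (-0.08 to 0.13) for Bhlhe40, -0.11 (-0.19 to -0.04) for Spi1 and -0.35 (-0.91 to 0.21) for Klf4. These differences between libraries have no test.

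Properties of the genes and markers of other cells were set beside these ratios. Over 9436 protein-coding genes (50 or more reads in every library), the Spearman correlation of the CH223191 ratio with GC content was 0.23 (normal medium) against 0.05 (4T1-CM), and that with length was -0.29 against 0.07, a description across genes of the same libraries. The 4T1-CM ratio with DMSO, which does not use control/CH223191, had correlations of -0.22 with GC content and 0.16 with length. For the 4T1-CM ratio with CH223191, which does use that library, they were -0.31 and 0.32. Less the median of the 200 genes nearest in GC content, the CH223191 ratio in normal medium was -0.93 for Cebpb, -0.61 for Cebpa, -0.66 for Bhlhe41 and -0.78 for Maf. Less that of the 200 nearest in length it was -1.20, -0.74, -0.61 and -0.64. The 4 values kept their sign, and that of Cebpb was within 2-fold with the first and past it with the second. The 7 fibroblast markers summed to 64.9 CPM in control/DMSO, 31.0 in control/CH223191, 157 in CM/DMSO and 134 in CM/CH223191. The sum was in the same order as Cebpb but for the 4T1-CM pair, led by Col1a2 and with Lum at 0 in all but control/DMSO. Not every marker followed the sum. Dcn had 35 reads in control/DMSO and 45 in control/CH223191, and Pdgfra 91 in control/DMSO and 83 in CM/DMSO. The 9 neutrophil markers summed to 67.6, 74.6, 242 and 181 CPM, with 3 or 4 of the 9 at 0, among them Ly6g, S100a9 and Retnlg in every library. The sum was mostly Csf3r in normal medium, and mostly Csf3r and Mmp8 in 4T1-CM. Mmp8 was at 2.20 and 1.32 CPM in normal medium and at 122 and 46.7 in 4T1-CM. The part of these cell markers, of GC content and of length in the values of the factors was not tested.

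**Figure D4:**
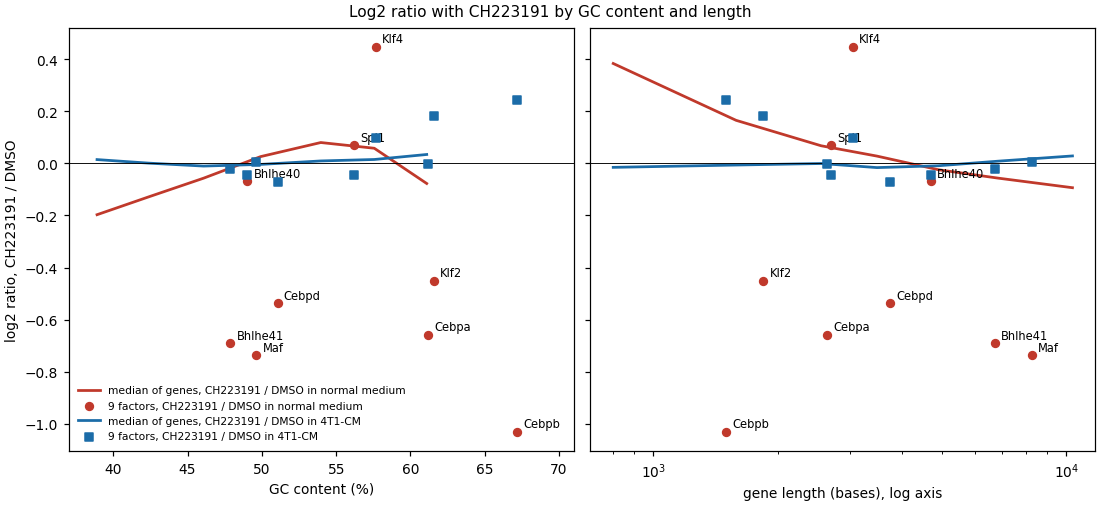
Log2 ratio of CH223191 to DMSO against GC content (left, percent) and gene length (right, bases, log axis), with lines for the median of 9436 genes in bins and points for the 9 factors, in normal medium (red circles) and in 4T1-CM (blue squares). In normal medium Cebpb, Maf, Bhlhe41, Cebpa, Cebpd and Klf2 lie below the level of the red line, and Bhlhe40 slightly below it. In 4T1-CM the factors lie between -0.07 and 0.24 beside a line near 0.

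An additive quasi-likelihood fit of edgeR over the 4 libraries, with medium and compound as terms and 1 residual degree of freedom, treats the 2 libraries of a medium as replicates and assumes that the compound acts alike in both media. For medium, 2 of 9 factors were higher at an adjusted p under 0.05, beside 16.4% of genes, and 2 were lower, beside 16.2%. Those higher were Cebpb, with a log2 ratio of 1.13 and an edgeR adjusted p of 0.00462, and Klf4, with 0.68 and 0.0301. Those lower were Maf, with -0.68 and an edgeR adjusted p of 0.0106, and Spi1, with -0.48 and 0.0140. For the compound, none of the 9 passed, beside 0.0729% of genes higher and 0.00729% lower. Of the 9, 1 had an unadjusted p under 0.05, Maf, with an edgeR adjusted p of 0.777 (0.0490 unadjusted), beside 6.41% of genes under that unadjusted level. The differences above between the 2 4T1-CM ratios of Cebpb, Maf, Bhlhe41 and Cebpa are not part of this model.

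Other factors of macrophages were listed beside the 9. Of 25, 23 were detected, of which 4 passed 2-fold upward and 3 downward in both 4T1-CM comparisons, beside 8.18% and 3.38% of all genes tested. Runx3 went from 29 and 33 reads in control/DMSO and control/CH223191 to 308 and 254 in 4T1-CM, Nr4a1 from 12 and 18 to 111 and 101, and Id3 from 60 and 58 to 135 and 124. Spic, the ETS relative of PU.1 in iron-recycling macrophages, had 0 and 3 reads against 18 and 9. Pparg, the lipid-sensing nuclear receptor, went from 885 and 824 reads to 221 and 257, Egr2 from 2731 and 2819 to 1144 and 1098, and Batf3 from 96 and 70 to 50 and 24. In all, 22 of the list had at least 10 reads in every library, and 3 of these were higher and 3 lower. For the 9 lineage factors both counts were 0, which among 9 is near what the shares of all genes give. The difference between the 2 sets was not tested.

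Relatives of the 9 factors were read by family, beside 8.18% of all genes tested higher and 3.38% lower in both 4T1-CM comparisons. The family counts were not tested. Among 13 detected ETS genes, relatives of Spi1, Elk3 (522 and 493 reads to 1639 and 1408) and Ets2 (448 and 495 to 1265 and 1050) were higher in both 4T1-CM comparisons. Among 4 genes that pair with or act on C/EBP proteins, Trib1, which directs C/EBPα to degradation, went from 95 and 74 reads to 232 and 210, and Ddit3, a C/EBP relative of the stress response, from 376 and 445 to 157 and 179. Of 10 detected other KLF genes, 0 were called in both. Of 14 detected clock genes, on which BHLHE40 and BHLHE41 act, 1 was called, Nr1d1, the clock repressor REV-ERBα, with 14 and 34 reads in normal medium against 111 and 138 in 4T1-CM.

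Genes known to depend on or be associated with these factors were read from 3 further lists. The lists were chosen with earlier results of these data known, so their counts are a description only. Of 13 genes known to need PU.1, 4 were at least 2-fold higher in both 4T1-CM comparisons and 0 lower, while Spi1 itself was lower in both. Of the 13, the ratio was below 0 for 5 with DMSO and for 4 with CH223191. Cybb, a subunit of the phagocyte oxidase, went from 708 and 728 CPM to 3027 and 2909, Fcgr1, an Fc receptor, from 255 and 351 reads to 1546 and 1278, Adgre1, the macrophage antigen F4/80, from 257 and 246 CPM to 1024 and 872, and Lyz2, lysozyme, from 11889 and 15186 to 32954 and 35569. Of 10 genes associated with C/EBPβ, 4 had at least 10 reads in every library and 3 of these were higher in both. Arg1, arginase, went from 32.6 and 58.9 CPM in normal medium to 1848 and 2422 in 4T1-CM, and Saa3, an acute-phase protein, from 13.1 and 23.6 to 784 and 814. Lcn2 and Il1b reached 10 reads in 4T1-CM only and are not among those 4. Lcn2 had 0 reads in both normal-medium libraries against 326 and 232, and Il1b had 2 and 8 reads against 3162 and 2252. In normal medium, Arg1 and Saa3 were higher with CH223191 than with DMSO, where Cebpb was lower. In 4T1-CM, where Cebpb was higher with CH223191 (0.24), Arg1 was also higher (0.39) and Saa3 differed little (0.05). The rest of those 4 had intervals that held 0 in normal medium and moved in opposite directions in 4T1-CM. The relation of these genes to Cebpb was not tested.

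Of 8 genes associated with c-Maf, 6 had at least 10 reads in every library and 3 of these were higher in both 4T1-CM comparisons, where Maf was lower. C1qa and C1qb, which encode chains of complement C1q, went from 146 and 229 and from 164 and 269 reads to 674 and 691 and to 808 and 809. C1qc, which encodes another chain, passed 2-fold with DMSO only, with log2 ratios of 1.04 with DMSO and 0.76 with CH223191. Il10 was hardly detected, with 1 read in CM/DMSO and 0 in each other library. F13a1, a coagulation factor subunit, went from 22 and 13 reads to 249 and 173, and Cd163, a scavenger receptor, had 1 and 0 reads against 16 and 12. Against these, Mrc1, the mannose receptor, was lower in both, with 2735 and 2254 reads against 1751 and 1503, and Folr2, a folate receptor, had 90 and 209 against 87 and 121, a pair within 2-fold that was chosen after its values were seen. The counts for these lists stand beside 8.18% of all genes higher and 3.38% lower in both comparisons. Those shares cover genes with at least 10 reads in any library, a wider set than the genes counted here with 10 in every library. The lists had no test of their own.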

How the data were processed

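RNA was extracted with TRIzol and libraries were made with the NEBNext Ultra RNA kit, per the labels. The values deposited by the authors are unnormalized whole-number counts of reads for each gene, in 1 table with 4 libraries. HISAT2 2.0.5 and DESeq2 are named in the submitters' processing notes, whereas the counting tool, strand setting and genome build of these libraries are not given in the sources used here. The coordinates of all 9 genes equal GENCODE M21 on GRCm38, as do those of 53462 of the 54532 genes. Columns were matched to samples by medium (RPMI for normal, TCM for 4T1-CM) and compound.

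Genes reaching 10 reads in any library were retained (13715, of which 11895 were protein-coding), and the entry with most reads was used where a symbol recurred (103 extra entries). Libraries were scaled with TMM (edgeR 4.0.16, R 4.3.3), with a prior count of 0.5 for log2 ratios. The totals of 15535405 to 17557127 reads put 3 reads at 0.171 to 0.189 CPM. Intervals cover counting error only and treat reads as independent molecules, which reads are not, so they can be too narrow. They hold no spread between cultures, since each condition is 1 library. Intervals for changes of a ratio and for differences of log2 ratios are on the log scale. Other steps used Python 3.11.15, numpy 2.4.6, pandas 2.3.3, scipy 1.17.1 and matplotlib 3.10.9. The ratio script was tested on simulated data.

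The 9 genes and the lists were chosen with earlier results of these data known. From each list, the text names at most 4 genes that were at least 2-fold different in both 4T1-CM comparisons, with the largest smaller ratio, as well as genes used in a ratio, overlapping genes and leading markers. Some further list and marker genes are named outside this rule, to show values that it leaves out. The rule would also name the genes closest in pattern to any factor called in both 4T1-CM comparisons, and no factor met it. Alternatives were DESeq2 1.42.0 size factors, total counts, a prior count of 5, no filter, a minimum of 10 reads in all libraries, the protein-coding subset and an additive edgeR fit. Centring on genes of like GC content or length, and the alternatives for the lists, were chosen after seeing the data. One planned ratio is not reported here.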

Additional observations from a re-analysis of the deposited data

Results flagged for a closer look

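For 2 of the 9 factors, a ratio had opposite signs under the same contrast in 2 settings with both counting intervals excluding 0. Other factors also changed sign, but with at least 1 interval that held 0. Each setting has 1 library on each side, and the difference was not tested. The log2 ratio of 4T1-CM to normal medium for Cebpa was -0.12 with DMSO and 0.54 with CH223191. Less the median of genes of like GC content, these values were 0.21 and 0.77. Less that of genes of like length they were 0.03 and 0.79, so with either centring the signs no longer differed. For Cebpb, CH223191 against DMSO gave -1.03 in normal medium but 0.24 in 4T1-CM. The library control/CH223191 enters the 0.54 of Cebpa and the -1.03 of Cebpb, and not the other value of either pair.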

How the results depend on the processing

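With 36 log2 ratios (9 factors in 4 comparisons), DESeq2 size factors, a prior count of 5, no filter, a minimum of 10 reads in all libraries and the protein-coding subset moved none beyond its 95% counting interval, and total counts moved 2. Centring on genes of like GC content moved 9 and centring on genes of like length moved 12. With centring on GC content, 1 factor (Klf4, 1.08) was at least 2-fold higher in CM/DMSO than in control/DMSO, where none was before, and 0 were lower with CH223191 in normal medium, where Cebpb was (now -0.93). In the additive edgeR fit, 2 factors were higher and 2 lower in 4T1-CM, against 0 and 0 at 2-fold in both comparisons; that fit applies a threshold on p and none on fold. No scaling moved the median of all genes by more than 0.1 on the log2 scale. Of the lists, with a prior count of 5 the other macrophage factors higher in both 4T1-CM comparisons fell from 4 to 2, and with at least 10 reads in every library those associated with C/EBPβ from 8 to 3. No paired analysis was possible because each condition is 1 library and the labels give no replicate numbers. Klf2, Klf4 and Cebpd rest on 69 to 201 reads per library, and their intervals are the widest of the 9.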
